A study of Mus musculus with 9 samples.

Results

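The cassette exons described here are the shortest in a table of events that shifted between wild type and mice without muscleblind-like 2, in hippocampus by RNA-seq or in brain by a splicing array. They were taken from the authors' table of cassette exon events by exon length, which the table gives with each event name, at a limit of 72 nt. This limit selected 167 of 468 events and left 301 longer ones. Among the 167, 26 were microexons of at most 30 nt, and the shortest were 27 nt long. One name, the 57 nt event of Enox1, carried a letter after the length and was kept. The 72 nt exons of Adam15 and Dst lay just inside the limit, with inclusion changing by 10.6 and -20.9 percentage points on RNA-seq reads, and the 73 nt exon of Spint2 (23.1 points) and the 74 nt exon of BC017643 (no reads, array score 0.35) lay just outside.

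The RNA-seq libraries came from dissected hippocampi of 3 wild-type and 3 Mbnl2 ΔE2/ΔE2 female mice, in which exon 2 of Mbnl2 is deleted from both alleles, at 2 to 3 months of age. All 6 had a mixed background of the strains C57BL/6 and 129 SvlmJ. The deletion is part of the genotype of the animal and not limited by a promoter to one cell type. HITS-CLIP, which sequences RNA crosslinked by ultraviolet light to a protein, was run on hippocampus of 3 wild-type females of 11 to 12 weeks, which sample labels give the same mixed background and the series text calls BL6. A splicing-sensitive microarray, which reads each event by the brightness of inclusion and skipping probes, compared 2 conditions in brain, as its column names say, and its samples are not described in the sources used here.

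A cassette exon is either kept in the mature transcript or spliced out together with its flanking introns. Exons whose length is a multiple of 3 can be kept or skipped without shifting the reading frame, and microexons in neurons often add a few residues to proteins of the synapse and cytoskeleton. Muscleblind-like proteins bind pre-mRNA next to such exons; binding in the downstream intron is generally linked to inclusion, and binding upstream or within the exon to skipping. The toxic repeat RNA of myotonic dystrophy sequesters these proteins, and MBNL2 is the main family member in the adult brain. No genome of build mm9, on which the files place the exons, was used here, so exons are given by position and length.

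The RNA-seq libraries held 8299323 to 27844309 raw read pairs and 2035836 to 6981448 junction fragments, and the CLIP libraries 159144, 209430 and 334857 unique tags. Splicing reads and brightness were deposited as 1 value per condition, named A and B, without the genotype. RNA-seq condition A was read as wild type because it was deeper, with 28075 reads over the short exons against 19582 in B, a ratio of 1.43, beside a wild-type to knockout ratio of 1.42 in junction fragments. The array names were read the other way round, with A as knockout, because only then do both platforms move in one direction. If the reading is wrong, every direction of splicing reads and array below turns over and the sizes remain. The authors' change of inclusion and the direction that groups exons for CLIP were deposited separately and do not follow from A and B. As signed here, that change had the sign of the pooled reads in 36 of 37 short exons. The targeted gene did not settle it: read as here, the knockout had more reads over Mbnl2 events and dimmer array probes for them. Peaks of the CLIP libraries lay in 4 of 5 neuron marker genes, 3 of 5 of oligodendrocytes, 3 of 4 of astrocytes, 2 of 2 of choroid plexus, 2 of 3 of endothelium and 0 of 4 of microglia. Among marker genes, the short exon events held the 45 nt exon of Mag alone, a myelin protein of oligodendrocytes, included in 89.5% of wild-type and 82.8% of knockout reads.

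Short exons kept the reading frame in 126 of 167 events, or 75.4% (95% exact interval 68.2 to 81.8%). Among the 301 longer exons the count was 173, or 57.5% (51.7 to 63.1%), and these intervals did not overlap. The share was higher still at the shortest lengths, at 25 of 26 microexons (96.2%) against 101 of 141 exons of 31 to 72 nt (71.6%). The 1 microexon that breaks the frame was the 28 nt exon of Pex5l, whose protein controls trafficking of HCN channels. The most frequent lengths were 30 nt with 14 events, 36 and 45 nt with 12 each and 27 nt with 11. By direction on the array, 58 of 78 less included and 52 of 68 more included exons kept it. These intervals cover counting error only, and events of 1 gene are not independent: the 167 events lay in 154 genes, with 4 in Madd. Whether the exons lie in coding sequence was not looked up. Statements on the frame here and below thus rest on length alone.

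**Figure D1:**
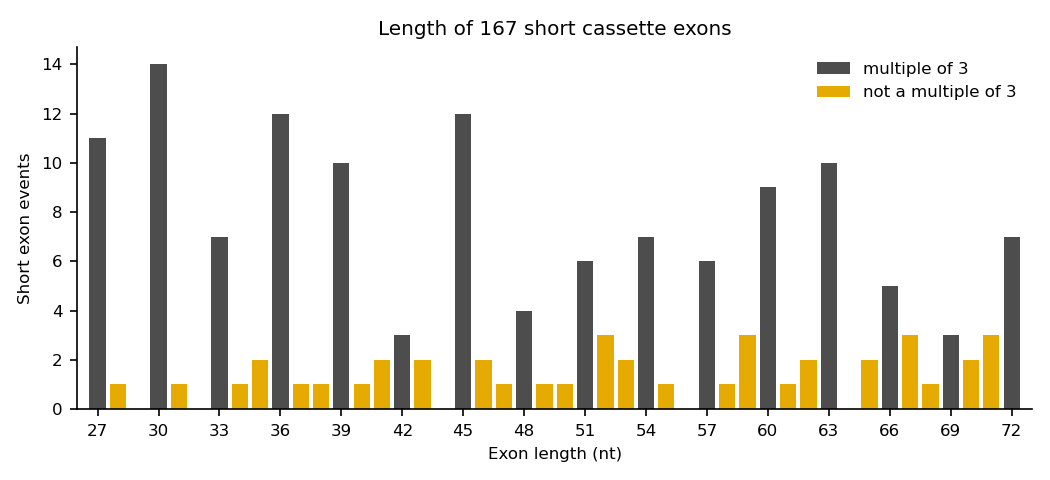
Number of short exon events (y axis) at each exon length in nt (x axis), with lengths that are multiples of 3 in dark grey and others in yellow. The tallest bars, 14 events at 30 nt and 12 at 36 and 45 nt, are all multiples of 3.

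In RNA-seq, the deposited reads covered 72 of the 167 short exons, with a median of 169.5 reads per exon in wild type and 126 in knockout. Inclusion, the share of inclusion reads among inclusion and skipping reads, ran from 6.70 to 96.4% in wild type. By a two-sided Fisher's exact test of the pooled reads, adjusted by Benjamini-Hochberg over all 151 events with reads, 50 of the 72 changed at an adjusted p of at most 0.05, or 69.4%, beside 67.5% of all events. Of these, 29 were less included in the knockout (40.3%, beside 33.1% of all events), with a median change of -16.7 points. The other 21 were more included (29.2%, beside 34.4%), with a median change of 17.8 points. The median change over all 72 was -2.60 points and over all 151 events 1.50 points. The test compares pooled reads, not animals, so spread between mice does not enter it, and in bulk tissue RNA a change within cells and a change in the mix of cells or in RNA per cell cannot be told apart. Dividing inclusion reads by 2, for their 2 junctions, left 29 calls, and Holm's adjustment 19. Among exons described below for which this was looked up singly, those of Pak3, Tmem134, Atf2, Pqlc1, Slc25a25, Acly and Car12 did not pass with inclusion reads divided by 2. It was not looked up singly for the called exons of Mag, Dync1i2, Clta, A2bp1, Hnrnpk and Camta1, which may also lose their call. Every event in the table had been listed for a q-value of at most 0.05 on RNA-seq, or on the array with a score of at least 0.3 in size, so these shares are those of exons already chosen as changed.

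**Figure D2:**
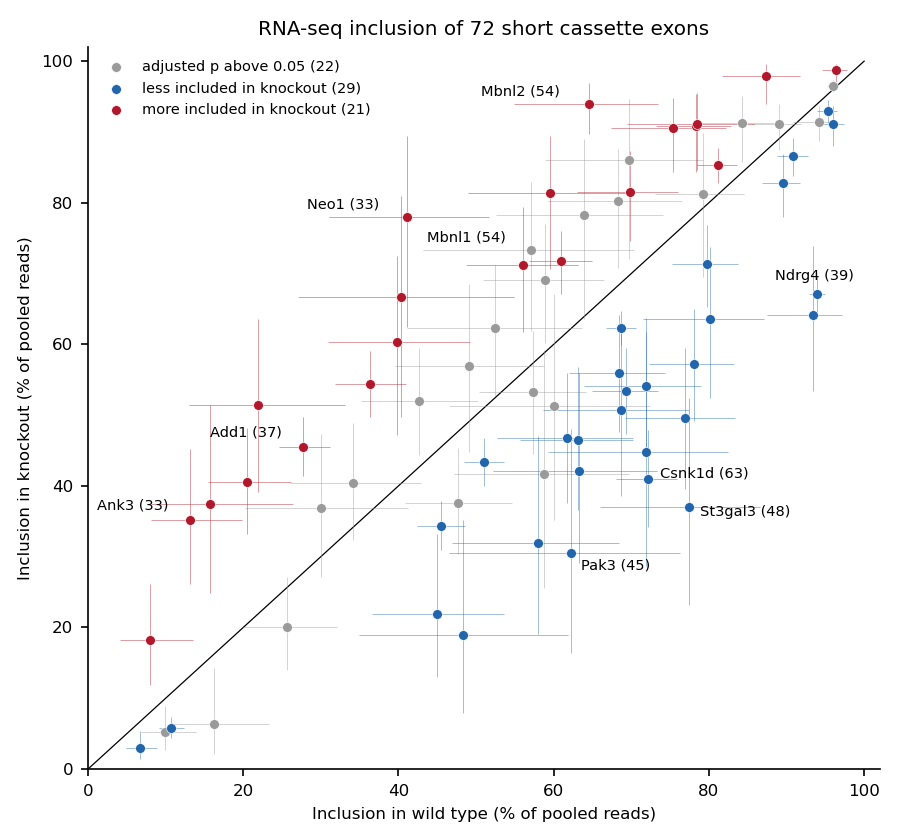
Inclusion of the 72 short exons with reads in wild type (x axis) and knockout (y axis), each in percent of pooled inclusion and skipping reads, with 95% exact intervals. Points below the diagonal were less included in knockout: 29 blue exons fell and 21 red exons rose at an adjusted p of at most 0.05, and 22 grey exons did not pass.

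Among exons that fell in the knockout, a deeply read one was the 39 nt exon of Ndrg4, a member of the NDRG family in neurons and heart, at mm9 chr8:98236225-98236263 on the plus strand. It was included in 2127 of 2264 wild-type reads, or 93.9% (92.9 to 94.9%), and in 857 of 1278 knockout reads, or 67.1% (64.4 to 69.6%). The change of -26.9 points had an interval of -29.7 to -24.2 and an adjusted p of 2.31e-93 in Fisher's exact test. On the array its inclusion probe read 1193 in knockout and 2152 in wild type while its skipping probe read 5938 and 3565. The inclusion probe was thus dimmer and the skipping probe brighter in knockout, with an authors' array score of -1.57. The change was larger in size with inclusion reads divided by 2, at -38.1 points, and in the authors' deposited table, at -0.41 as a fraction. As for every change from that table below, the deposited sign was turned here to read as knockout minus wild type. The array score is on a log2 scale and is close to the log2 of knockout over wild type in the inclusion to skipping ratio.

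The largest fall in points was that of the 48 nt exon of St3gal3, a sialyltransferase, at chr4:117727255-117727302 on the minus strand. Its inclusion went from 77.5% of 71 reads (66.0 to 86.5%) to 37.0% of 46 reads (23.2 to 52.5%), with an adjusted p of 0.000129 by Fisher's exact test, and its array score was -1.64. The wide intervals reflect the few reads, and the intervals of both conditions did not overlap. The 63 nt exon of Csnk1d, casein kinase 1 delta of the circadian clock, at chr11:120826262-120826324, fell from 72.1% of 534 reads to 41.0% of 210 reads, with an array score of -1.51. Csnk1d was read more deeply than St3gal3 and its intervals did not overlap either.

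Signalling kinases were among the other large falls. The 43 nt exon of Camkk2, a kinase that activates other calcium-dependent kinases, went from 76.9% of 147 reads to 49.5% of 105, and this exon does not keep the frame. The 45 nt exon of Pak3, a kinase that acts on actin in dendritic spines, went from 62.2% of 45 reads to 30.6% of 36. Both passed the threshold, but Pak3, with under 50 reads per condition, did not with inclusion reads divided by 2 (adjusted p = 0.0966 in Fisher's exact test), and in the authors' deposited table its change was -0.18. The 47 nt exon of Sirt2, a tubulin deacetylase abundant in oligodendrocytes, fell from 45.0 to 21.9%, with an array score of -0.21 and an array q-value of 0.098; the authors' deposited table gave it a change of -0.11. The 45 nt exon of Tmem134 fell from 48.3 to 18.9% on 58 and 37 reads, with an array score of -0.10 and a q-value of 0.214; divided by 2, its inclusion reads did not pass (adjusted p = 0.0966 in Fisher's exact test). For these exons of Sirt2 and Tmem134 the array had the same sign without passing its threshold. The 72 nt exon of Dst, which codes for a linker between cytoskeletal filaments, fell from 78.1% of 233 reads to 57.2% of 159, with an array score of -1.35.

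Among exons that rose was the 54 nt exon of Mbnl2 itself, at chr14:120794934-120794987. It was included in 71 of 110 wild-type reads, or 64.5% (54.9 to 73.4%), and in 187 of 199 knockout reads, or 94.0% (89.7 to 96.8%). The change of 29.4 points had an adjusted p of 2.20e-09 by Fisher's exact test, and the array score was 1.16. With inclusion reads divided by 2 the change was 40.7 points, and in the authors' deposited table it was 0.39. The second short Mbnl2 exon, of 36 nt, was at 94.2% of 293 reads in wild type and 91.4% of 523 in knockout, which did not pass the threshold (adjusted p = 0.201 in Fisher's exact test). Its array score was -0.50 with a q-value listed as 0, and in the authors' deposited table its change was 0.01, so the sign for this exon depends on the measure. The 54 nt exon of Mbnl1, the closest relative of Mbnl2, was at 57.1% of 56 reads in wild type and 73.3% of 75 in knockout (adjusted p = 0.0802 in Fisher's exact test). Its array score of 1.43 was the second highest of the short exons, and the authors' deposited table gave a change of 0.30 with a false discovery rate of 1.08e-06. Both 54 nt exons had higher inclusion in knockout on each platform.

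The largest rise in points was that of the 33 nt exon of Neo1, neogenin, a receptor for netrins and repulsive guidance molecules, from 41.1% of 95 reads (31.1 to 51.6%) to 78.0% of 41 reads (62.4 to 89.4%). Its array score was -0.10 with a q-value of 0.291, so the array did not show this rise. The 33 nt exon of Ank3, ankyrin-G of the axon initial segment, rose from 13.2% of 144 reads to 35.2% of 105, with an array score of 1.13; the authors' deposited table gave it a change of 0.13. The 37 nt exon of Add1, an adducin that caps actin filaments on the spectrin skeleton, rose from 27.8% of 742 reads to 45.5% of 560, with an array score of 1.37 and an adjusted p of 1.41e-09 by Fisher's exact test. Of these 3, Ank3 and Add1 rose on both platforms, and the Add1 exon shifts the frame. The 36 nt exon of Nap1l4, a nucleosome assembly protein, rose from 36.3 to 54.4%.

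Rises on fewer reads were those of the 51 nt exon of Myef2, an RNA-binding protein, from 21.9% of 73 reads to 51.4% of 70, and of the 63 nt exon of Atf2, a transcription factor, from 40.4% of 52 to 66.7% of 39; the Atf2 exon did not pass with inclusion reads divided by 2 (adjusted p = 0.107 in Fisher's exact test). Atf2 had an array score of -0.01 with a q-value of 0.292, and Myef2 a score of 0.15 with a q-value of 0.05. The 66 nt exon of Epha5, an ephrin receptor, rose from 59.6 to 81.3% and the 54 nt exon of Pqlc1 from 15.7 to 37.5%, the latter not passing with inclusion reads divided by 2 (adjusted p = 0.0985 in Fisher's exact test). The 51 nt exon of D430041B17Rik rose from 20.4 to 40.6%. The 36 nt exon of Slc25a25, a mitochondrial carrier, rose from 39.8 to 60.3% on reads with an array score of 0.67, whereas the authors' deposited table gave it a change of 0.06 at a false discovery rate of 0.42 and its divided reads did not pass (adjusted p = 0.0850 in Fisher's exact test).

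The array measured 164 short exons, 95 of which had no deposited read counts. By the authors' q-value of at most 0.05, 78 were less included in knockout (47.6%, beside 47.5% of all events) and 68 more included (41.5%, beside 43% of all events), together 146 or 89.0%, beside 90.5%. These shares were close to those of the whole table. The median size of the score was 0.43 for short and 0.38 for longer exons. The lowest score belonged to the 36 nt exon of Limch1, an actomyosin regulator, at -1.95, where the inclusion probe read 180 in knockout and 481 in wild type and the skipping probe 1047 and 706. The 60 nt exon of Spna2, alpha-II spectrin, had a score of -1.73, with inclusion brightness of 545 and 1515. The 38 nt exon of Arpp21, a cAMP-regulated phosphoprotein of neurons, had a score of -1.69, with skipping brightness of 636 in knockout and 236 in wild type. All 3 lacked pooled read counts. In the authors' deposited table the change of inclusion was -0.37 for Limch1 and -0.19 for Spna2, each with a false discovery rate. For Arpp21 it was -0.0016 with no false discovery rate given, so that value was not tested there. The highest score was 2.38, of the 30 nt exon of Tanc2, a postsynaptic scaffold, where the inclusion probe read 1043 in knockout and 763 in wild type and the skipping probe 700 and 1461. The log2 shift computed from these 4 values was 1.51, so the score exceeded what the deposited brightness gives. The 60 nt exon of Tom1l2, of an endosomal adaptor, had a score of 1.32, while its reads went from 49.1 to 56.9% without passing (adjusted p = 0.402 in Fisher's exact test), and its change in the authors' deposited table was 0.17.

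Both platforms gave a value for 69 short exons, and 60 of these had the same sign. Past 0.05 on both, 29 of 31 had the same sign, or 93.5% (78.6 to 99.2%); all 26 of these longer than 30 nt did, and 3 of 5 microexons. Because the table joins exons listed on either platform, the reads of exons that met the array thresholds were not used to list them. The array conditions were named so that signs on both platforms would be the same, so this choice fixed the direction of agreement, and the counts of shared signs describe how uniform it was. Of 39 such short exons with reads, 20 passed on reads (51.3%, beside 44.6% of all such events), and 35 of the 39 had the same sign, including all 20 that passed. Of 30 short exons with an array value that were listed for RNA-seq alone, and so had missed the array thresholds on score or q-value, 12 had an array q-value of at most 0.05 (40.0%, beside 38.9% of all such events), and 25 had the same sign. Their median array score was 0.15 in size. The authors' change of inclusion, deposited with a nonzero value for 61 short exons that met the array thresholds, had the sign of the array in 55. Here too the signs were set, as that of the change was turned.

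**Figure D3:**
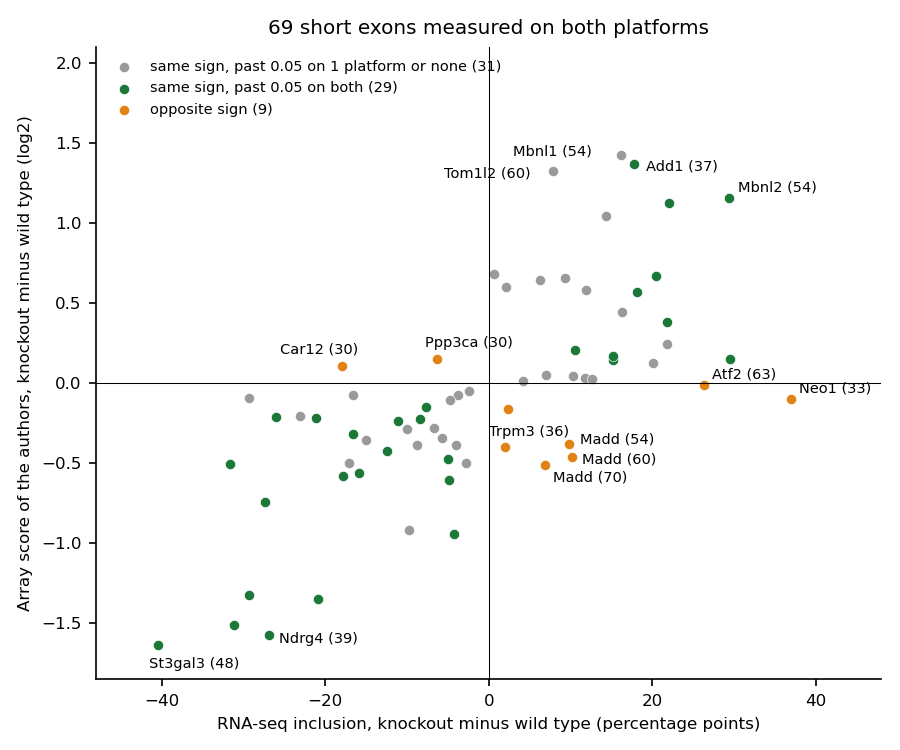
RNA-seq change of inclusion in percentage points (x axis) against the authors' array score on a log2 scale (y axis) for 69 short exons, both knockout minus wild type. Green exons passed 0.05 on both platforms with the same sign (29), grey ones had the same sign without that (31), and 9 orange exons had opposite signs.

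By pooled reads and array score, the 2 exons with opposite signs past 0.05 on both platforms were both microexons. By the authors' scores and q-values, 32 of 35 short exons past 0.05 on both had the same sign, but 3 of 6 microexons. The 30 nt exon of Ppp3ca, the catalytic subunit of calcineurin, was included in 68.7% of 2210 wild-type and 62.4% of 1589 knockout reads, with an array score of 0.15. Its change of -6.32 points was small beside those above, and so was its score. A further 7 of the 69 had opposite signs without passing on both, among them 3 exons of Madd, a regulator of Rab GTPases. The 54, 60 and 70 nt exons of Madd had array scores of -0.38, -0.47 and -0.51 but higher inclusion on reads by 9.84, 10.2 and 6.84 points, none of which passed. The 63 nt exon of Madd had an array score of 0.48 and no reads.

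Microexons divided evenly by direction. On the array, 23 of 24 passed (95.8%, beside 90.5% of all events), 11 less included (45.8%, beside 47.5%) and 12 of the 24 more included (beside 43%) in knockout; the exception was the 30 nt exon of Car12, a carbonic anhydrase, with a score of 0.11 and a q-value of 0.578. On reads, 8 of 10 passed, 5 less and 3 more included, which is 80.0% beside the 67.5% of all events. The 30 nt exon of Ncam1, the neural cell adhesion molecule, at chr9:49358645-49358674, fell from 69.3% of 479 reads to 53.5% of 275, with an array score of -0.57. The 30 nt exon of Acly, which makes acetyl-CoA from citrate, fell from 80.2 to 63.5%, with an array score of -0.32, but did not pass with inclusion reads divided by 2 (adjusted p = 0.0637 in Fisher's exact test). Both exons were lower on both platforms. The Car12 exon fell on reads, from 68.6 to 50.7%, also not passing with divided reads (adjusted p = 0.104 in Fisher's exact test), and its log2 shift in brightness was -0.17 although its score was positive.

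Of the microexons that rose on reads, the 30 nt exon of Trpm3, a cation channel, went from 78.3% of 295 reads to 90.9% of 121. The 30 nt exon of Luc7l2, a partner of the U1 splicing particle, went from 60.9% of 571 reads to 71.7% of 407. Neither had an array value. The 27 nt exon of Odz4, teneurin-4, was at 69.8% of 86 reads in wild type and 86.0% of 43 in knockout, which did not pass (adjusted p = 0.0707 in Fisher's exact test), with an array score of 0.44. The Pex5l exon was at 58.8 and 41.7% (adjusted p = 0.132 in Fisher's exact test), with an array score of -0.50. For both exons the sign of the pooled reads was that of the array. The authors' RNA-seq score of the Odz4 exon had the opposite sign, at -0.17 with a q-value of 0.044.

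The microexons that follow had no deposited read counts. The 27 nt exon of Prpf18, a factor of the second splicing step, had the lowest microexon score at -0.86, followed by the 30 nt exon of Arhgef11, a guanine nucleotide exchange factor, at -0.75. In the authors' deposited table their changes were -0.17 and -0.25. The 3 receptor tyrosine phosphatases Ptprd, Ptprs and Ptprt, of which the first 2 organise synapses, had microexons of 27, 27 and 30 nt that were all more included in knockout, at 0.43, 0.31 and 0.31. The 27 nt exons of Ank3 (0.58), of the polarity kinase Mark2 (0.46), of the actin bundler Pls3 (0.42) and of the adhesion receptor Lphn3 (0.37) were also more included, as were the 30 nt exons of Arfgap1 (0.42) and Art3 (0.37). Less included were the 27 nt exons of the motor Myo6 (-0.40) and of Ctage5 (-0.34) and the 30 nt exon of Musk (-0.44), the receptor kinase of the neuromuscular junction. Apart from Tanc2, the microexon scores lay within 0.9 of 0.

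**Figure D4:**
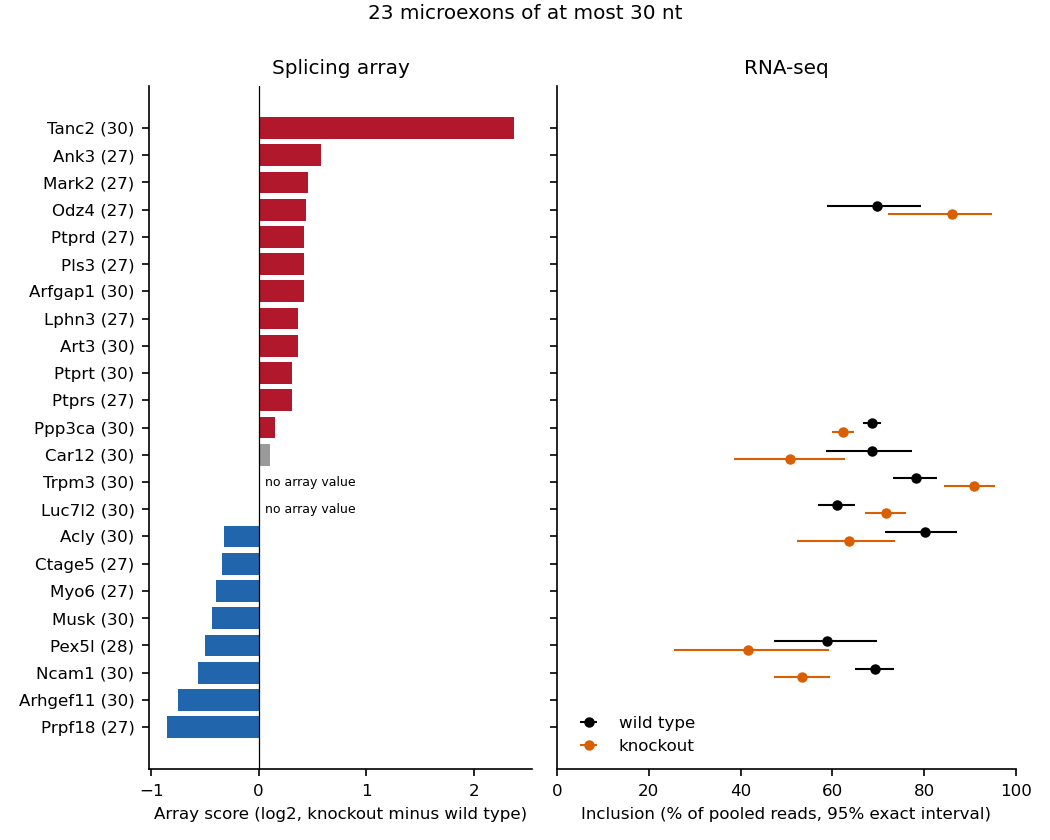
Of the 26 microexons, 23 ordered by array score (left, log2, knockout minus wild type; grey for a q-value above 0.05) with inclusion in percent of pooled reads in wild type (black) and knockout (orange) where reads were deposited (right, bars are 95% exact intervals). Tanc2 stands at 2.38 on the array, and the exon of Ppp3ca moves in opposite directions on both panels.

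By function, exons were counted in 6 hand-made lists of genes, chosen with earlier results of these data known. The lists do not hold every gene of a kind: Epha5, Musk, Madd and the receptor tyrosine phosphatases, for example, are outside the list of kinases, phosphatases and GTPase regulators, and Myef2 is outside that of RNA-binding proteins. Other kinases outside the list of kinases were more included on the array: Map4k3 (0.97), Vrk1 (0.62), Map2k4 (0.58), Rps6kb2 (0.40) and Gsk3b (0.36). Musk, also outside it, was less included (-0.44). On reads the Map2k4 exon was 11.9 points higher without passing. The counts of the lists describe the listed genes and not the class, and would change with other listings. Over all events, 33.1% were called lower and 34.4% higher on reads, and 47.5% lower and 43% higher on the array. Of the listed kinases, phosphatases and GTPase regulators, 9 short exons were in the table, 5 with reads; on reads 4 fell and 0 rose, and on the array 6 were lower and 3 higher. The Epha5 exon, outside this list, rose by 21.8 points. Median changes on reads were -27.3 points for these 5 exons, -2.80 for 7 of listed RNA-binding proteins, -0.01 for 8 of synaptic proteins, 2.33 for 3 of channels and receptors, 8.18 for 8 of cytoskeletal proteins and 12.6 for 3 of transcription and chromatin proteins. Besides Csnk1d, Camkk2, Pak3 and Ppp3ca, the 45 nt exon of Camk2b, a subunit of calcium/calmodulin kinase II, stood at 95.9% of 3185 and 96.6% of 2091 reads, which did not pass, while its array score was 0.68. The authors' deposited table gave this Camk2b exon a change of 0.03 with a false discovery rate of 4.2e-06. Mark2 held exons in both directions, at 0.46 for 27 nt and -0.41 for 45 nt. Listed ion channels and receptors held 7 short exons, 3 with reads; on reads 0 fell and 2 rose, and on the array 4 were lower and 2 higher. The 60 nt exon of Cacna1d, a pore subunit of L-type calcium channels, had an array score of -1.44 and, in the authors' deposited table, a change of -0.58. The 63 nt exon of Grin1, the obligatory subunit of NMDA receptors, had an array score of 0.88 and a change in that table of 0.17.

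Listed cytoskeletal proteins held 15 short exons, 8 with reads, of which 3 fell and 3 rose, while on the array 7 were lower and 6 higher. Among the falls was Dst, and the rises were Ank3, Add1 and the 60 nt exon of Dync1i2, a dynein intermediate chain, from 69.8 to 81.5%. Synaptic scaffold, adhesion and vesicle proteins on the list held 17, 8 with reads, of which 4 fell and 2 rose, with 5 lower and 10 higher on the array. Among them the light chain Clta of clathrin moved in both directions: its 36 nt exon fell from 90.9% of 843 reads to 86.6% of 665 with an array score of -0.95, and its 54 nt exon rose from 81.2% of 908 to 85.4% of 794 with an array score of 0.02. Listed RNA-binding proteins held 8, 7 with reads, with 3 falls and 2 rises and 5 lower and 2 higher on the array. Within that list the 53 nt exon of A2bp1, a neuronal splicing factor of the Fox family, fell from 45.5% of 1062 reads to 34.4% of 753, and the 72 nt exon of Hnrnpk fell from 96.0 to 91.2%. Listed transcription and chromatin proteins held 4, 3 with reads, with 0 falls and 2 rises and 1 lower and 1 higher on the array; in Camta1, a calcium-responsive activator, the 70 nt exon rose from 78.5 to 91.1% while its 31 nt exon was at 47.7 and 37.6% (adjusted p = 0.0688 in Fisher's exact test).

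CLIP tags of MBNL2 in wild-type hippocampus were counted around the 74 short exons with deposited coordinates. By the authors' deposited direction, as read here, 39 were less and 35 more included in knockout. This direction went against the authors' change of inclusion for the 70 nt exon of Madd and the 36 nt exon of Mbnl2. It also did for B830045N13Rik, Nmt2, Clasp1 and Vrk1, and that change was 0, with no false discovery rate given, for Bnip3l, Tfdp1, Il15ra and Hnrnpk. Within 1000 nt, the less included exons had 95.2 ± 28.7 tags per 1000000 upstream and 305 ± 63.2 downstream (SD, n = 3 libraries). The more included exons had 162 ± 22.4 upstream and 165 ± 28.3 downstream. The log2 of downstream over upstream was 1.66 ± 0.33 and 0.02 ± 0.25, a difference of 1.64 ± 0.41 that was positive in all 3 libraries. With 3 libraries an exact test by sign flips cannot give a two-sided p below 0.25, which is what it gave. The Ndrg4 exon alone held 80 of the 208 downstream tags, many of them in the next exon, and without it the difference was 0.99. Cutting the windows at the flanking exons left 138 downstream tags, 21 of them at Ndrg4, and a difference of 1.52 ± 0.49, or 1.37 without Ndrg4. The cut windows differed in length, and tags were not divided by it. Those of less included exons spanned 37092 nt downstream and 29386 upstream, those of more included exons 29608 and 31665. Under even tag density these lengths alone would make the difference positive.

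The contrast lay close to the exons. Within 200 nt and inside the introns, the less included exons had 17 tags upstream and 60 downstream, and the more included ones 76 upstream and 35 downstream. Per library, tags downstream of less included exons numbered 15, 14 and 31 against 3, 5 and 9 upstream. Upstream of more included exons they numbered 15, 21 and 40 against 9, 9 and 17 downstream. All 3 libraries thus had the higher count downstream of less included and upstream of more included exons. Counts per exon were low, and 10 to 20 exons of each group carried a tag on a given side. For longer exons the difference within the cut windows, again not divided by length, was 1.21 ± 0.44, within the spread between libraries of that for short ones.

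**Figure D5:**
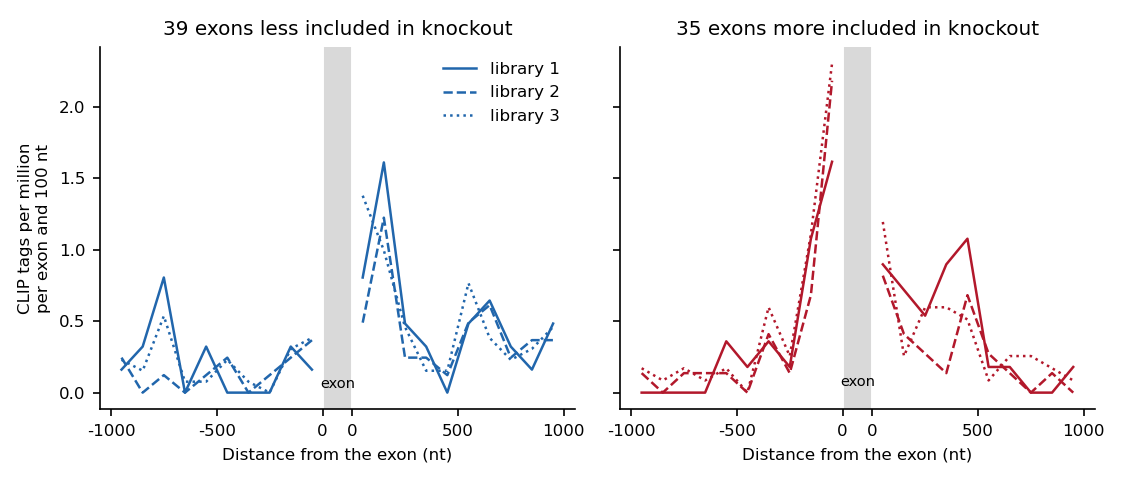
Wild-type CLIP tags per 1000000, per exon and 100 nt (y axis), by distance from the exon in nt (x axis) for 39 exons less included (left, blue) and 35 more included (right, red) in knockout, cut at the flanking exons, with 1 line per library. Tags of all 3 libraries are highest just downstream of the less included and just upstream of the more included exons.

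Single exons went both ways. Within the cut windows, 21 of 39 less included exons had more tags downstream and 6 more upstream. Of 35 more included exons, 15 had more tags upstream and 13 more downstream. Downstream of the Spna2 exon lay 10, 10 and 16 tags in the 3 libraries within the cut window, against 0, 1 and 1 upstream. Downstream of the Ndrg4 exon lay 4, 5 and 12 tags against 2, 0 and 0 upstream, and downstream of the Dst exon 1, 4 and 4 against none. These 3 exons were less included in knockout. Upstream of the 54 nt exon of Mbnl2 lay 3, 5 and 11 tags against 4, 2 and 2 downstream. Upstream of the 27 nt exon of Ank3 lay 1, 5 and 8 tags, with 0, 1 and 1 downstream. Upstream of the 54 nt exon of Mbnl1 lay 1, 3 and 4 tags, with 0, 0 and 1 downstream. These 3 exons were more included in knockout, with CLIP tags mostly upstream. The Add1 exon was more included too, with 17 tags downstream in all and 9 upstream. Also more included were the exons of Kif21a, with 14 tags downstream and 6 upstream, and of Nrcam, with 9 and 2. Of less included exons, the 45 nt exon of Mark2 had 10 tags upstream and 1 downstream, and the Ncam1 exon 8 and 2.

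Peaks that the authors called on the 3 libraries together lay between the flanking exons of 20 of the 167 short exons (12.0%) and of 35 of 301 longer exons (11.6%). Within 1000 nt of the 74 exons with coordinates, 3 more included exons had a peak upstream: Tom1l2 at 29 nt, the 33 nt exon of Ank3 at 56 nt and its 27 nt exon at 130 nt from the exon. The Add1 exon had its peak 51 nt downstream. Of less included exons, Dst had a peak 106 nt downstream, and 2 had one upstream, at 735 nt for the 45 nt exon of Mark2 and at 908 nt for Depdc5. Most short exons thus lay in no called peak, and 26 of the 167 had no tag between their flanking exons.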

How the data were processed

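Counts of inclusion and skipping reads, read pairs, junction fragments and unique CLIP tags were deposited by the authors; splicing reads are pooled per condition. Array brightness is an intensity that the authors deposited, with log2 separation scores and q-values of both platforms (array sign read as in the report). The joint table of the authors holds a change of inclusion as a fraction, signed, with a false discovery rate. The sign of that change was turned here to read as knockout minus wild type. The deposited tag files carry a score that was not used. The submitters' processing notes name TopHat 1.3.2 and Novoalign, with build mm9; which step each served is not stated there.

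Inclusion was inclusion reads over all reads of an event, not scaled for junction number. Fisher's exact tests were adjusted by Benjamini-Hochberg over 151 events; intervals are 95% Clopper-Pearson, or Newcombe for differences. On simulated reads of 151 events with 30 changed by 20 points, 71% were recovered. These reads were drawn without spread between animals, so this share does not show how the test behaves with such spread. Fewer events were changed in them than the 102 of 151 that passed here, so the adjusted cut-off differed and the share does not carry over. Tags were placed by their centre, with counts summed over exons per library. Named exons were all microexons past a threshold, the 10 largest changes each way on reads and 5 on the array, opposite signs, muscleblind exons, those at the limit, and listed genes. Some exons that this rule names are not reported here. Members and lists were chosen with earlier results of these data known. Python 3.11.15, pandas 2.3.3 and scipy 1.17.1 were used.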

Additional observations from a re-analysis of the deposited data

How the results depend on the processing

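Of 72 short exons with reads, 50 passed on pooled reads; 19 did under Holm's adjustment, 29 with inclusion reads divided by 2, 29 by the authors' false discovery rate (37 exons listed), and 20 of 39 among exons that entered through the array, a choice made after seeing the data. At most 27 nt left 1 microexon with reads, Odz4, and 0 passing by Fisher's exact test, also at an unadjusted p. The CLIP difference of 1.64 was 2.67 within 200 nt, 0.99 without Ndrg4 (chosen after seeing the data) and 1.41 to 1.78 leaving out 1 library. The change of the 36 nt Mbnl2 exon turned from -2.80 to 1.0 points in the authors' table. Of the 35 named exons with reads, 10 lost their call with inclusion reads divided by 2, and 25 kept their side of the threshold. In the authors' table, single changes moved by over 1.5 times: Slc25a25 from 20.5 to 6.26 points, Sirt2 from -23.1 to -10.9, Pak3 from -31.7 to -17.8, the 33 nt Ank3 exon from 22.0 to 12.5, Mbnl1 from 16.2 to 30.01, Ndrg4 from -26.9 to -41.1 and Tom1l2 from 7.84 to 17.5. Their median size was 20.9 points over 35 exons, 18.9 with divided reads and 18.8 over 21 exons in that table. The array count of 146 was 119 at a q-value of at most 0.01 and 134 with a score of at least 0.3. It was 110 at a length of at most 60 nt, which leaves fewer exons. The share of shared signs was 87.0 to 93.5% and the frame share 75.3 to 78.9%. The causes were not tested. No paired analysis was possible because splicing reads are pooled over libraries and carry no replicate number. Spread between animals could not be measured.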

Other observations

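Totals over the events of the targeted gene went in different directions on the platforms. The 36 nt Mbnl2 event had 293 reads in the condition read as wild type and 523 in that read as knockout, and the 54 nt event 110 and 199. Summed array brightness of the 36, 54 and 95 nt events was 0.599, 0.578 and 0.616 times as high in the condition read as knockout, beside a median of 0.987 over 463 events. The only other event as low was the 46 nt event of Tbp, at 0.582.

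For 5 short exons the sign of the authors' RNA-seq score went against that of the pooled reads: the 36 nt exons of Mbnl2, Trpm3 and Erc2, the 27 nt exon of Odz4 and the 60 nt exon of Tom1l2. In Odz4 the score was -0.17 with a q-value of 0.044. Its inclusion on pooled reads was 16.3 points higher without passing and its array score was 0.44. Tbp held short exons in both directions on the array, at -0.31 for 46 nt and 0.76 for 49 nt.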
